A study of Homo sapiens with 9 samples.

Results

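The genes described here are 9 neighbours of MYCN on the short arm of human chromosome 2, at 2p24-p25: GREB1, LPIN1, TRIB2, NBAS, DDX1, FAM49A, VSNL1, GEN1 and SMC6. They were chosen by name for their position, without MYCN itself, out of 19706 gene symbols in the table, and all 9 passed the filter on low values that left 13078 genes for testing. RNA with a poly(A) tail was sequenced from 3 human neuroblastoma cell lines, each with 3 libraries. Kelly and BE(2)C carry an amplified MYCN locus and SH-SY5Y does not, according to the labels. All cells were untreated and were harvested at 70% confluence. Each genotype is represented by 1 or 2 cultured lines, BE(2)C and SH-SY5Y being clonal sublines, so a difference between lines cannot be told apart from a difference of MYCN status. Libraries are numbered within a line with no word on separate cultures. The p-values therefore reflect variation among libraries of a line, which could be purely technical.

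MYCN encodes a transcription factor of the MYC family, and amplification of its locus marks a high-risk group of neuroblastomas. The amplified segment, carried on extrachromosomal circles or as tandem arrays within a chromosome, is usually larger than MYCN and differs in its ends from tumour to tumour, so that some neighbouring genes are copied along with it. DDX1 and NBAS are the neighbours best known for this. Copy number was not measured here: the values are RNA levels, which depend on gene copies and on the activity of each copy alike, and these cannot be told apart.

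Levels are given as scaled TPM, the share of the gene total (TPM with spike-ins left out) divided by a trimmed-mean factor per library, so that they can be set against each other between genes and lines. Differences are log2 fold changes of scaled TPM + 1 with their SE from limma, and a gene was called at a Benjamini-Hochberg adjusted p under 0.05 over all 13078 genes. How deeply each library was sequenced cannot be read from TPM and is unknown. Added ERCC spike-in RNAs made up most of every library: genes took 9.33% to 11% of the total in Kelly libraries, 13.2% to 15.5% in those of BE(2)C and 15.3% to 16.2% in those of SH-SY5Y. The log2 ratios of 61 spike-ins between a Kelly library and one of another line had an SD of 0.304 to 0.37, against 0.0583 to 0.0986 between libraries of 1 line, and single spike-ins moved between Kelly and SH-SY5Y by a median of 0.28 and by up to 1.38 on the log2 scale. The part of this library difference in the Kelly results was not tested. Mitochondrial genes took 24.5% to 35.4% of the gene total in BE(2)C, against 16.5% to 19.8% in Kelly and 17.2% to 18.1% in SH-SY5Y. All 12 noradrenergic neuroblastoma markers in the table averaged at least 1 scaled TPM in Kelly and in BE(2)C, as did 11 of the 12 in SH-SY5Y. Markers of leukocytes, epithelium, and liver or erythroid cells summed to at most 4.75 scaled TPM in any library. The fibroblast or mesenchymal markers summed to 4.49 to 6.06 in Kelly, 13.1 to 42.1 in BE(2)C and 40.6 to 45.3 in SH-SY5Y libraries, and the glial or Schwann markers to at most 13.4 in any library; their part in the results was not tested.

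MYCN, the point from which distances are counted, lies at chr2:15940564-15947007 on the plus strand of GRCh38. Its level was 5900, 5980 and 6050 scaled TPM in the Kelly libraries, 4810, 6550 and 6810 in BE(2)C, and 26.5, 28.4 and 26.9 in SH-SY5Y. The libraries therefore matched their MYCN labels. The log2 fold change was 7.72 ± 0.12 in Kelly over SH-SY5Y (limma, adjusted p = 6.03e-10), or 211-fold with a 95% interval of 176-fold to 254-fold. The BE(2)C over SH-SY5Y value was 7.73 ± 0.12 (limma, adjusted p = 6.42e-10), or 212-fold. As deposited these log2 values were 6.79 in Kelly and 6.93 in BE(2)C, and quantile normalization gave 8.08 and 7.46. The sizes therefore depend on the scaling, and as deposited also on the pseudocount, by more than the printed interval. Kelly and BE(2)C differed by 0.00 ± 0.12 (95% interval -0.27 to 0.26), a value that other scalings moved to 0.32 or 0.62.

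None of the 9 neighbours came near this size. In bulk RNA of a line, fewer cells that express a gene and less RNA per cell cannot be told apart. The largest increase among them was that of FAM49A in Kelly, at 4.24-fold of scaled TPM + 1 with an upper 95% bound of 6.02-fold. That gene is low in SH-SY5Y, so its size and bound depend on the pseudocount. The ratio of its means was 5.76, and its log2 fold change was 2.45 ± 0.64 with a pseudocount of 0.1. For BE(2)C the largest increase was that of TRIB2, at 2.81-fold with an upper bound of 3.11-fold. Of the 9 genes, 5 were called higher and 2 lower in Kelly than in SH-SY5Y, where 28.1% of all tested genes were called higher and 27.2% lower (55.3% in either direction). As deposited, the balance turned to 1 higher and 4 lower. Between BE(2)C and SH-SY5Y, 2 were called higher and 4 lower in BE(2)C, against 28.6% and 30.7% of all tested genes (59.4% in either direction). In Kelly over BE(2)C 5 were called higher and 2 lower, against 27.9% and 24.6% of all tested genes (52.5% in either direction). The median log2 fold change of the 9 genes was 0.59, -0.33 and 0.28 in these comparisons, and that of all tested genes was 0.00, -0.04 and 0.02. The first pair of comparisons shares the SH-SY5Y libraries, and the third is also the test of whether the differences from SH-SY5Y are unequal in Kelly and BE(2)C.

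**Figure D1:**
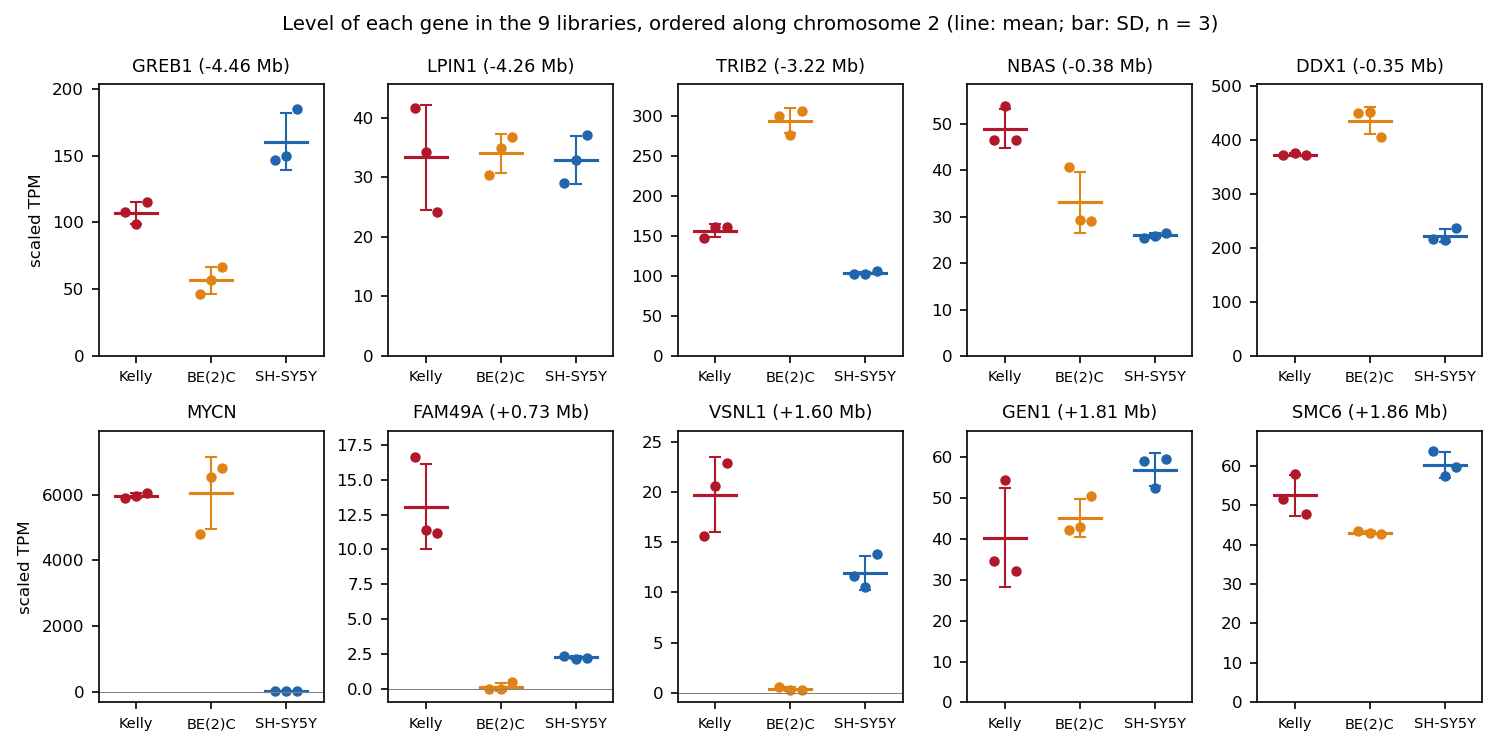
Level of MYCN and of the 9 neighbouring genes in each of the 9 libraries, in scaled TPM on a linear axis, ordered along chromosome 2 with the distance of the gene's start from that of MYCN in Mb. Points are libraries, horizontal lines are means and bars are SD (n = 3 per line). DDX1, NBAS and TRIB2 lie above SH-SY5Y in every Kelly and BE(2)C library, whereas FAM49A and VSNL1 are above SH-SY5Y in Kelly and near 0 in BE(2)C.

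DDX1 and NBAS are the nearest of the 9 genes. DDX1, a DEAD-box RNA helicase that takes part in tRNA ligation, lies at chr2:15591178-15631111 on the plus strand, with its start 0.349 Mb from that of MYCN towards the telomere. NBAS, a subunit of a tethering complex for vesicles returning from the Golgi to the endoplasmic reticulum, lies at chr2:15166909-15561330 on the minus strand, 0.379 Mb from MYCN. Both were called higher in Kelly than in SH-SY5Y libraries, and in BE(2)C DDX1 was higher while NBAS did not pass the test. The genes point away from each other, with 29.8 kb between their starts. Stretches before the RefSeq starts of MYCN, NBAS and DDX1 are shown because these are the amplified gene and its nearest neighbours on the telomere side. Each is written 5′ to 3′ on the strand of its gene, from the RefSeq annotation of GRCh38.p14: 250 bases before the start of MYCN (chr2:15940300-15940549) and of NBAS (chr2:15561335-15561584, minus strand), and for DDX1 the 30 bases that hold its motif matches (chr2:15591666-15591695). The RefSeq start of DDX1, at position 15591868, lies inside the GENCODE 29 gene, so the DDX1 stretch falls within exonic sequence of longer DDX1 transcripts. Capitals mark matches to CACGCG or CATGTG on either strand.
MYCN: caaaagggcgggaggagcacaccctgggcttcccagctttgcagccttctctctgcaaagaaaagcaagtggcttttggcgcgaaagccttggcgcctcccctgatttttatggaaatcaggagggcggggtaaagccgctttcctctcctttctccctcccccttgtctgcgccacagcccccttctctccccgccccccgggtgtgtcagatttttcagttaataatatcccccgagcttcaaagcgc
NBAS: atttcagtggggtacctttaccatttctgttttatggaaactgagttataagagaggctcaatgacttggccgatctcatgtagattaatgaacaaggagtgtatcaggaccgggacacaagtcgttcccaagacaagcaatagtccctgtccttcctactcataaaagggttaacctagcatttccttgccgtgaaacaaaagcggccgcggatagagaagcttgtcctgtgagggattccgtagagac
DDX1: tacCGCGTGgtgtgctccgaaCACATGgtg

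MYC proteins bind, with their partner MAX, to the E-box CACGTG and more weakly to variants such as CACGCG and CATGTG. The first of these motifs, searched on both strands, was in none of the windows of 250 bases before the start of MYCN or of the 7 neighbours that have one; 6.35% of all 35114 windows of this length hold it. The variant CACGCG was found once before DDX1, 199 bases from its start and read there as CGCGTG. It was also found once before GEN1, 121 bases from the start at position 17753869. The window before the other GEN1 start, at 17754138, holds no match. LPIN1, VSNL1 and GEN1 each had more than 1 window, and 9.72% of all windows hold CACGCG. The other variant, CATGTG, was found before DDX1, 181 bases from its start and read there as CACATG; 9.42% of all windows hold it. A match of letters is a description of the sequence and says nothing of binding.

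DDX1 had 371, 376 and 371 scaled TPM in Kelly, 449, 452 and 406 in BE(2)C, and 216, 215 and 236 in SH-SY5Y. Every Kelly and BE(2)C library lay above every SH-SY5Y library. It was the most abundant of the 9 genes in each line, above 97.7% of the tested genes in Kelly, above 97.9% in BE(2)C and above 96.2% in SH-SY5Y. DDX1 rose by 0.74 ± 0.06 on the log2 scale in Kelly over SH-SY5Y (limma, adjusted p = 8.64e-06), or 1.67-fold with a 95% interval of 1.52-fold to 1.84-fold. The change in BE(2)C over SH-SY5Y was 0.97 ± 0.06 (limma, adjusted p = 1.38e-06), or 1.95-fold with an interval of 1.77-fold to 2.15-fold. With the values as deposited and no rescaling, the Kelly difference was 0.03 (adjusted p = 0.838), so that call rests on rescaling. The median log2 fold change was -0.546 over the 10279 genes tested as deposited, against -0.004 over the 13078 tested by scaled TPM. Both fits add 1 to the values, and deposited values are smaller, 34.3 against 371 for DDX1 in Kelly library 1. That compresses the deposited differences, most for low genes, so these medians do not give the size of the rescaling for DDX1. The Kelly call was kept with library totals only (0.61), without mitochondrial genes in the total (0.61) and with quantile normalization (0.53). The BE(2)C difference was 0.39 as deposited (adjusted p = 0.0174), and 0.51 with library totals only.

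NBAS had 46.6, 53.8 and 46.6 scaled TPM in Kelly, 40.7, 29.4 and 29.2 in BE(2)C, and 25.5, 25.9 and 26.6 in SH-SY5Y. The 3 lines did not overlap, with Kelly highest and SH-SY5Y lowest. NBAS rose by 0.89 ± 0.13 in Kelly over SH-SY5Y (limma, adjusted p = 4.29e-04), or 1.85-fold with a 95% interval of 1.5-fold to 2.28-fold. For BE(2)C over SH-SY5Y the value was 0.32 ± 0.13 (limma, adjusted p = 0.0649), with an interval of 1.01-fold to 1.54-fold before adjustment. It was called without BE(2)C library 3 (0.40, adjusted p = 0.0432) and after quantile normalization (0.36, adjusted p = 0.0396), and it was -0.13 with library totals only and -0.19 as deposited. The Kelly call also rests on rescaling, being 0.16 as deposited (adjusted p = 0.382). It was kept with library totals only (0.75), without mitochondrial genes in the total (0.76) and with quantile normalization (0.91).

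The ratio of DDX1 to NBAS within a library is the same whatever factor the library is divided by, though not under quantile normalization. It was 7.97, 6.99 and 7.96 in Kelly, 11.0, 15.4 and 13.9 in BE(2)C, and 8.47, 8.32 and 8.88 in SH-SY5Y. BE(2)C thus had more DDX1 relative to NBAS than either other line, and the Kelly libraries lay just under those of SH-SY5Y. Between Kelly and BE(2)C, NBAS was higher in Kelly by 0.57 ± 0.13 (limma, adjusted p = 0.00621) and DDX1 lower by 0.22 ± 0.06 (log2 fold change -0.22, adjusted p = 0.0135). The DDX1 difference between these lines was 0.10 with library totals only and -0.08 with quantile normalization (adjusted p = 0.196), and that of NBAS was 0.88 with library totals only and 0.36 as deposited (adjusted p = 0.0951).

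FAM49A, now named CYRIA, encodes a RAC1-binding protein that restrains actin branching at the cell edge. It is the nearest of the 9 genes on the centromere side, at chr2:16549459-16666331 on the minus strand, with its start 0.726 Mb from that of MYCN. It was higher in Kelly and lower in BE(2)C than in SH-SY5Y. The libraries had 16.6, 11.4 and 11.2 scaled TPM in Kelly, were listed at 0, 0 and 0.491 in BE(2)C, and had 2.40, 2.16 and 2.25 in SH-SY5Y. No libraries of different lines overlapped. FAM49A rose by 2.08 ± 0.22 in Kelly over SH-SY5Y (limma, adjusted p = 4.62e-05), and it stayed called as deposited at 0.76 (limma, adjusted p = 6.01e-06). Its deposited values were 1.53, 1.31 and 1.26 TPM in Kelly and 0.406, 0.396 and 0.383 in SH-SY5Y. These lie near or under the pseudocount of 1, so the 0.76 depends on the pseudocount as well as on the scaling. The spike-in shifts between these lines, with a median of 0.28 and up to 1.38, were centred on the spike-ins and not scaled as the genes were. They set no limit for a single gene, and their part in the 5 Kelly increases was not tested. The fitted difference of BE(2)C over SH-SY5Y was -1.52 ± 0.22 (limma, adjusted p = 3.08e-04). Its size is set by the pseudocount, being -3.71 with a pseudocount of 0.1 and -0.46 as deposited, so no fold is given.

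VSNL1, a neuronal calcium sensor of the visinin family, lies at chr2:17539126-17657018 on the plus strand, 1.60 Mb from MYCN. Its pattern over the lines was like that of FAM49A in order, with BE(2)C far below the others. VSNL1 had 15.6, 20.6 and 22.9 scaled TPM in Kelly, 0.595, 0.256 and 0.311 in BE(2)C, and 11.6, 10.5 and 13.8 in SH-SY5Y. VSNL1 fell by 3.23 ± 0.20 on the log2 scale in BE(2)C over SH-SY5Y (log2 fold change -3.23; limma, adjusted p = 1.13e-06), and the means were 0.387 and 12 scaled TPM. The BE(2)C libraries lie under the pseudocount, and the difference was -4.68 with a pseudocount of 0.1 and -1.55 as deposited. In Kelly over SH-SY5Y it rose by 0.66 ± 0.20 (limma, adjusted p = 0.0188). That call was lost without Kelly library 2 (0.62, adjusted p = 0.0565), Kelly library 3 (0.55, adjusted p = 0.0694), SH-SY5Y library 1 (0.65, adjusted p = 0.0566) or SH-SY5Y library 2 (0.58, adjusted p = 0.0706). It was also lost with library totals only (0.54, adjusted p = 0.056), without mitochondrial genes in the total (0.54, adjusted p = 0.0548), with a pseudocount of 0.1 (0.70, adjusted p = 0.0794) and as deposited (0.00, adjusted p = 0.981).

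Kelly and BE(2)C, both labelled as amplified, differed most, among the 9, in these genes. The difference of Kelly over BE(2)C was 3.60 ± 0.22 for FAM49A (limma, adjusted p = 1.83e-06) and 3.89 ± 0.20 for VSNL1 (limma, adjusted p = 6.54e-07). The BE(2)C levels lie near 0, so these sizes are set by the pseudocount: with 0.1 in place of 1 they were 6.16 for FAM49A and 5.39 for VSNL1, and as deposited 1.22 and 1.56. The direction and the call were kept in each case.

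**Figure D2:**
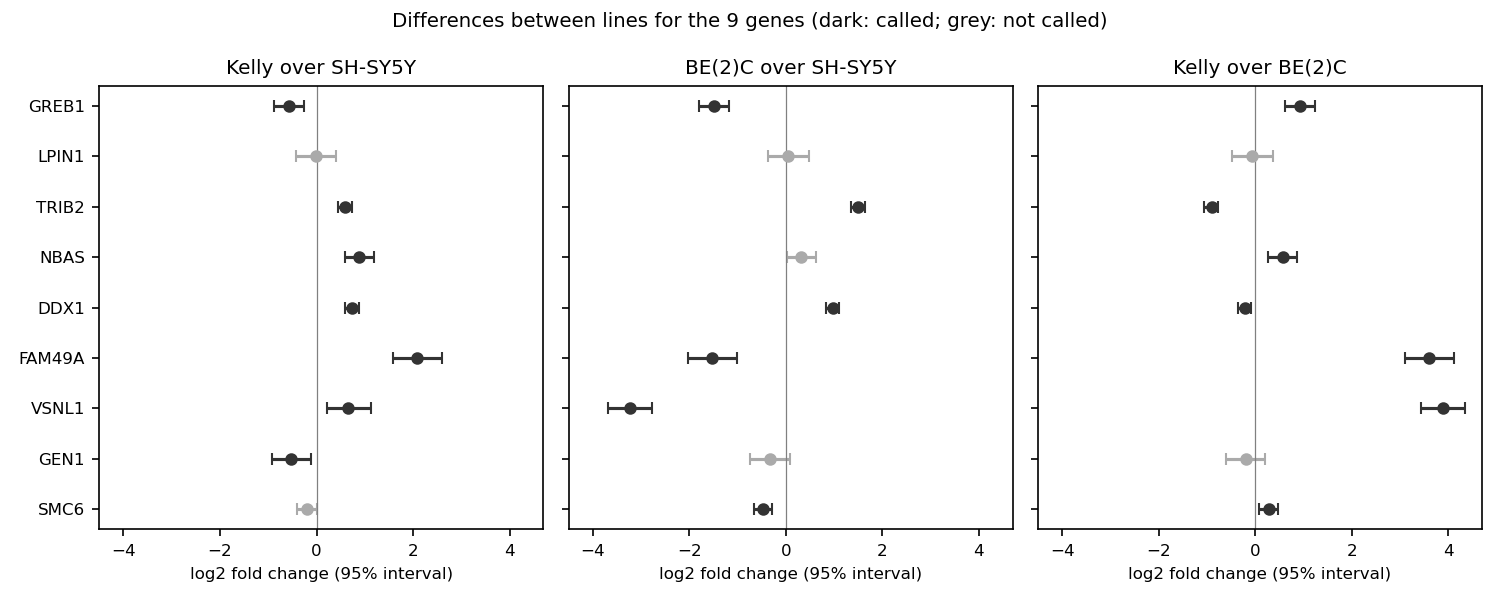
Log2 fold change of scaled TPM + 1 for the 9 genes in Kelly over SH-SY5Y, BE(2)C over SH-SY5Y and Kelly over BE(2)C, ordered along chromosome 2 from the telomere side at the top. Points are limma estimates, bars are 95% intervals, dark symbols were called and grey ones were not. FAM49A and VSNL1 lie on opposite sides of 0 in the first and second panels, and LPIN1 lies at 0 in all of them.

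GEN1 and SMC6 both serve DNA repair by recombination: GEN1 is a nuclease that cuts Holliday junctions, and SMC6 is a core subunit of the SMC5/6 complex. GEN1 lies at chr2:17753858-17788941 on the plus strand and SMC6 at chr2:17663812-17800242 on the minus strand, 1.81 and 1.86 Mb from MYCN. Neither was called higher in an amplified line than in SH-SY5Y. In GENCODE 29 their bodies overlap by 35.1 kb, with 107 exonic bases in common, which is 1.09% of the exonic length of SMC6 and 0.905% of that of GEN1. Of the 10 annotated SMC6 transcripts, 3 start beyond the start of GEN1, and the overlap and the 1.86 Mb rest on these. The main starts lie head to head 58 bases apart in RefSeq, and the middle of that gap is shown because the genes begin from it in opposite directions (chr2:17753831-17753857, plus strand, GRCh38.p14); no motif searched for lies in it.
SMC6 to GEN1: ctcccttcgggctccgcccgcgcctgc

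SMC6 had 51.6, 57.9 and 47.8 scaled TPM in Kelly, 43.4, 43.0 and 42.6 in BE(2)C, and 63.8, 57.3 and 59.6 in SH-SY5Y. All BE(2)C libraries lay below all SH-SY5Y libraries, and Kelly overlapped SH-SY5Y. SMC6 fell by 0.48 ± 0.09 in BE(2)C over SH-SY5Y (log2 fold change -0.48; limma, adjusted p = 0.00122), and Kelly over SH-SY5Y gave -0.20 ± 0.09 (adjusted p = 0.0797). As deposited, as with library totals only, the BE(2)C value was -0.93. The Kelly value was called under other scalings, at -0.34 from library totals alone (adjusted p = 0.0296), -0.34 without mitochondrial genes (adjusted p = 0.0112), -0.27 after quantile normalization (adjusted p = 0.0289) and -0.81 as deposited (adjusted p = 1.44e-04), and without Kelly library 2 (-0.27, adjusted p = 0.0305).

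GEN1 had 34.5, 54.3 and 32.1 scaled TPM in Kelly, 42.2, 42.8 and 50.5 in BE(2)C, and 59.1, 52.3 and 59.4 in SH-SY5Y. Kelly library 2 stood apart from the other Kelly libraries and lay within the range of SH-SY5Y. GEN1 fell by 0.53 ± 0.18 in Kelly over SH-SY5Y (log2 fold change -0.53; limma, adjusted p = 0.0332). Without Kelly library 2 the value was -0.76 (adjusted p = 8.45e-04), and it was -1.07 as deposited, -0.66 with library totals only and -0.67 without mitochondrial genes. The call was lost without Kelly library 1 (-0.44, adjusted p = 0.106), Kelly library 3 (-0.38, adjusted p = 0.113), SH-SY5Y library 1 (-0.50, adjusted p = 0.0862) or SH-SY5Y library 3 (-0.49, adjusted p = 0.0879), and when SH-SY5Y and Kelly alone were fitted (adjusted p = 0.0553). The value for BE(2)C over SH-SY5Y was -0.33 ± 0.18 (limma, adjusted p = 0.145). It was called without Kelly library 2 in the shared fit (-0.33, adjusted p = 0.022) and when these lines alone were fitted (-0.33, adjusted p = 0.0274). Other scalings also called it, at -0.78 with library totals only (adjusted p = 0.00616), -0.80 as deposited (adjusted p = 0.0019) and -0.54 without mitochondrial genes (adjusted p = 0.0339).

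The ratio of GEN1 to SMC6 within a library was 0.669, 0.937 and 0.671 in Kelly, 0.972, 0.996 and 1.18 in BE(2)C, and 0.926, 0.913 and 0.997 in SH-SY5Y. Kelly libraries 1 and 3 held less GEN1 relative to SMC6 than every other library. The sources used here do not say whether reads were counted by strand, so reads from the shared exonic bases cannot be assigned to 1 of the genes. Between Kelly and BE(2)C, SMC6 was higher in Kelly by 0.28 ± 0.09 (limma, adjusted p = 0.0252). That call was lost without Kelly library 2 (0.20, adjusted p = 0.09), BE(2)C library 2 (0.28, adjusted p = 0.0587) or BE(2)C library 3 (0.27, adjusted p = 0.0561), when these lines alone were fitted (0.28, adjusted p = 0.0562) and as deposited (0.12, adjusted p = 0.46), and the value was 0.59 with library totals only. For GEN1 the difference was -0.20 ± 0.18 (95% interval -0.60 to 0.21), and without Kelly library 2 it was -0.43 (adjusted p = 0.0153).

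TRIB2, a pseudokinase that brings targets to a ubiquitin ligase, lies at chr2:12716889-12742734 on the plus strand, 3.22 Mb from MYCN towards the telomere. It showed the largest increase of the 9 genes in BE(2)C. The libraries had 148, 162 and 161 scaled TPM in Kelly, 300, 277 and 307 in BE(2)C, and 103, 103 and 106 in SH-SY5Y. The lines did not overlap. TRIB2 rose by 1.49 ± 0.06 in BE(2)C over SH-SY5Y (limma, adjusted p = 1.20e-07), a value that was 1.03 with library totals only and 0.89 as deposited. In Kelly over SH-SY5Y it rose by 0.59 ± 0.06 (limma, adjusted p = 4.64e-05), and this turned to -0.11 with the values as deposited (adjusted p = 0.444). Kelly stood below BE(2)C by 0.90 ± 0.06 (log2 fold change -0.90; adjusted p = 3.91e-06), or -0.58 with library totals only.

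LPIN1 and GREB1 are the farthest of the 9 from MYCN. LPIN1, the phosphatidate phosphatase lipin 1 of lipid synthesis, lies at chr2:11677595-11827409, and GREB1, known as a target of oestrogen receptor in breast cancer cells, at chr2:11482341-11642788, both on the plus strand. Their starts lie 4.26 and 4.46 Mb from that of MYCN towards the telomere, with 34.8 kb between the genes.

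LPIN1 had 41.7, 34.2 and 24.2 scaled TPM in Kelly, 30.4, 35.0 and 36.8 in BE(2)C, and 29, 32.9 and 37.1 in SH-SY5Y. All 3 lines overlapped, and the Kelly libraries spread most. The difference from SH-SY5Y was -0.01 ± 0.19 in Kelly (95% interval -0.43 to 0.41; limma, adjusted p = 0.967). The BE(2)C difference was 0.05 ± 0.19 (95% interval -0.37 to 0.47; limma, adjusted p = 0.842). The values as deposited gave calls of -0.59 in Kelly (limma, adjusted p = 0.00261) and -0.44 in BE(2)C (limma, adjusted p = 0.0161). Medians over the 10279 genes tested as deposited were -0.546 and -0.443, against -0.004 and -0.038 over the 13078 tested by scaled TPM. The same pseudocount was added to smaller values there, so the medians do not give the size of the rescaling for LPIN1.

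GREB1 had 108, 98.9 and 115 scaled TPM in Kelly, 46.6, 57.0 and 66.8 in BE(2)C, and 147, 150 and 185 in SH-SY5Y. The lines did not overlap, with SH-SY5Y highest and BE(2)C lowest. GREB1 fell by 0.57 ± 0.14 in Kelly over SH-SY5Y (log2 fold change -0.57; limma, adjusted p = 0.0063), and as deposited the value was -1.22. In BE(2)C over SH-SY5Y it fell by 1.49 ± 0.14 (log2 fold change -1.49; limma, adjusted p = 1.53e-05). Kelly was above BE(2)C by 0.92 ± 0.14 (limma, adjusted p = 4.47e-04). The ratio of LPIN1 to GREB1 within a library was 0.386, 0.346 and 0.210 in Kelly, 0.654, 0.614 and 0.551 in BE(2)C, and 0.197, 0.219 and 0.201 in SH-SY5Y. The ratio was highest in BE(2)C, where GREB1 was lowest.

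The order of the 9 genes by mean level was similar at its top in all lines. In Kelly it ran DDX1 (373), TRIB2 (157), GREB1 (107), SMC6 (52.4), NBAS (49.0), GEN1 (40.3), LPIN1 (33.4), VSNL1 (19.7) and FAM49A (13.1 scaled TPM), where the libraries of SMC6, NBAS and GEN1 overlapped in range, as did those of GEN1 and LPIN1 and those of VSNL1 and FAM49A. The mean levels in BE(2)C ran DDX1 (436), TRIB2 (294), GREB1 (56.8), GEN1 (45.2), SMC6 (43.0), LPIN1 (34.1) and NBAS (33.1 scaled TPM), with VSNL1 and FAM49A each under 1. Neighbours in that order overlapped in range from GREB1 to SMC6 and from LPIN1 to NBAS. In SH-SY5Y they ran DDX1 (222), GREB1 (161), TRIB2 (104), SMC6 (60.3), GEN1 (56.9), LPIN1 (33.0), NBAS (26.0), VSNL1 (12.0) and FAM49A (2.27 scaled TPM), and SMC6 and GEN1 alone of the adjacent pairs overlapped.

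**Figure D3:**
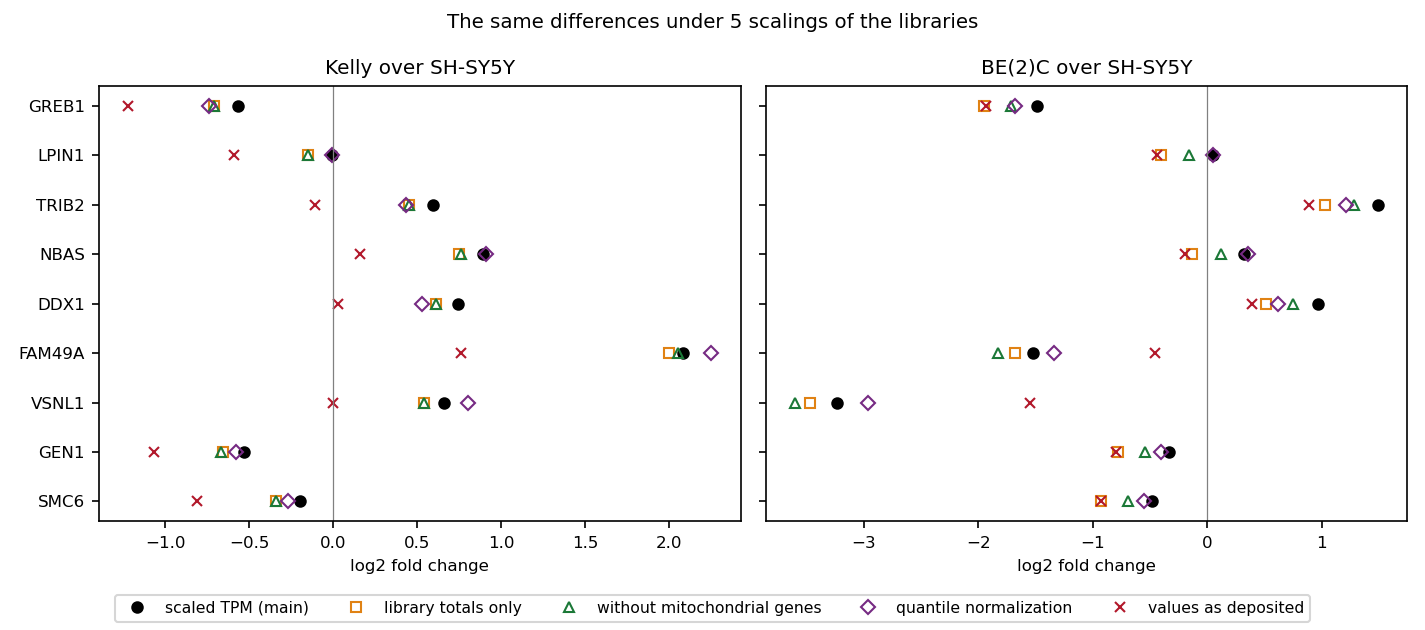
Log2 fold change of the 9 genes in Kelly over SH-SY5Y (left) and BE(2)C over SH-SY5Y (right) under 5 scalings of the libraries. Symbols are estimates without error bars. The values as deposited lie lowest for all 9 genes in Kelly, where TRIB2 crosses 0, and NBAS and LPIN1 in BE(2)C lie on both sides of 0.

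Distance from MYCN was followed over the 79 other gene symbols of the table within 10 Mb on either side, of which 64 were tested. Within 1 Mb the table holds only NBAS, DDX1 and FAM49A, and all 3 were called higher in Kelly, whereas in BE(2)C 1 was called higher and 1 lower. Between 1 and 2 Mb, 5 genes were tested; 3 were called higher and 1 lower in Kelly, and in BE(2)C 2 were called lower and the other 3 did not pass. From 2 to 5 Mb, 2 of 15 tested genes were called higher and 4 lower in Kelly, and 3 were called higher and 5 lower in BE(2)C. From 5 to 10 Mb, 10 of 41 were called higher and 13 lower in Kelly, and 7 were called higher and 15 lower in BE(2)C. Over all 64 genes, 28.1% were called higher and 28.1% lower in Kelly, close to the 28.1% and 27.2% of all tested genes. For BE(2)C these shares were 17.2% and 35.9%, against 28.6% and 30.7% of all tested genes. The median log2 fold change in these 4 bins, outward from MYCN, was 0.89, 0.66, -0.05 and -0.02 in Kelly over SH-SY5Y, and 0.32, -0.37, -0.08 and -0.10 in BE(2)C over SH-SY5Y. The nearest bins hold 3 and 5 genes, 1 of which, KCNS3, passed the filter on low values through Kelly alone and so had to differ. The Kelly median and calls at 1 to 2 Mb include KCNS3. The rest of that bin in Kelly over SH-SY5Y was FAM84A at 1.46, VSNL1 at 0.66, SMC6 at -0.20 and GEN1 at -0.53. In these nearest bins the Kelly calls of DDX1, NBAS and VSNL1 were lost with the values as deposited, as given above. Beyond 2 Mb, MATN3 (2 to 5 Mb) and KCNF1 (5 to 10 Mb) passed the filter through SH-SY5Y alone. They therefore had to be lower in the other lines. MATN3 is among the lower calls of both Kelly and BE(2)C, and KCNF1 among those of Kelly.

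Outside the 9 genes, FAM84A and KCNS3 were also higher in Kelly within 2 Mb. FAM84A, 1.31 Mb from MYCN on the telomere side, had 17.9, 18.9 and 18.9 scaled TPM in Kelly, 3.18, 6.02 and 4.68 in BE(2)C, and 7.04, 6.43 and 5.07 in SH-SY5Y. It rose by 1.46 ± 0.21 in Kelly over SH-SY5Y (limma, adjusted p = 3.30e-04), and BE(2)C over SH-SY5Y gave -0.37 ± 0.21 (adjusted p = 0.158). KCNS3, a modifying subunit of voltage-gated potassium channels 1.94 Mb from MYCN on the centromere side, was singled out after its values were seen. It had 4.93, 3.09 and 4.17 scaled TPM in Kelly, 0, 0 and 0.135 in BE(2)C, and 0.211, 0.0855 and 0.0793 in SH-SY5Y. Since the filter kept KCNS3 for its Kelly values alone, its difference is a description with no test, and no fold is given over levels this close to 0. GEN1 and SMC6, which lie between VSNL1 and KCNS3, were not called higher in Kelly.

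Farther out, single genes also differed between lines. In Kelly over SH-SY5Y, KLHL29, 7.44 Mb from MYCN, averaged 48.6 ± 3.8 scaled TPM in Kelly against 10.5 ± 0.505 scaled TPM in SH-SY5Y (SD, n = 3 each) and rose by 2.11 ± 0.13 (limma, adjusted p = 1.20e-06). The other named genes at 5 to 10 Mb were lower in Kelly: HPCAL1 (-1.80 ± 0.15), IAH1 (-1.77 ± 0.61), EFR3B (-1.48 ± 0.12) and ASAP2 (-1.08 ± 0.16). IAH1 had 4.80, 1.05 and 16.0 scaled TPM in Kelly and 18.9, 17.4 and 21.2 in SH-SY5Y, with Kelly library 3 close to the SH-SY5Y libraries (limma, adjusted p = 0.0325). In BE(2)C over SH-SY5Y the small GTPase RHOB, 4.51 Mb from MYCN, had 536, 594 and 562 scaled TPM in BE(2)C and 101, 101 and 100 in SH-SY5Y. RHOB rose by 2.47 ± 0.07 (limma, adjusted p = 1.40e-08), the largest increase within 10 Mb in that line apart from MYCN. TP53I3, a target of p53, rose by 2.02 ± 0.30 in BE(2)C, and ODC1, the first enzyme of polyamine synthesis and a known MYC target, by 1.10 ± 0.07 (limma, adjusted p = 1.22e-06). ODC1 and RHOB were also called higher in Kelly over SH-SY5Y, under the 2-fold limit for naming. Their values there were 0.88 ± 0.07 (limma, adjusted p = 5.95e-06) and 0.61 ± 0.07 (limma, adjusted p = 7.13e-05). TP53I3 was not called in Kelly (0.34 ± 0.30; limma, adjusted p = 0.371). KLF11 (-2.50 ± 0.19), EFR3B (-2.21 ± 0.12), ASAP2 (-2.20 ± 0.16), the heparan sulphate proteoglycan SDC1 (-2.11 ± 0.12) and RNF144A (-1.12 ± 0.12) were lower in BE(2)C.

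**Figure D4:**
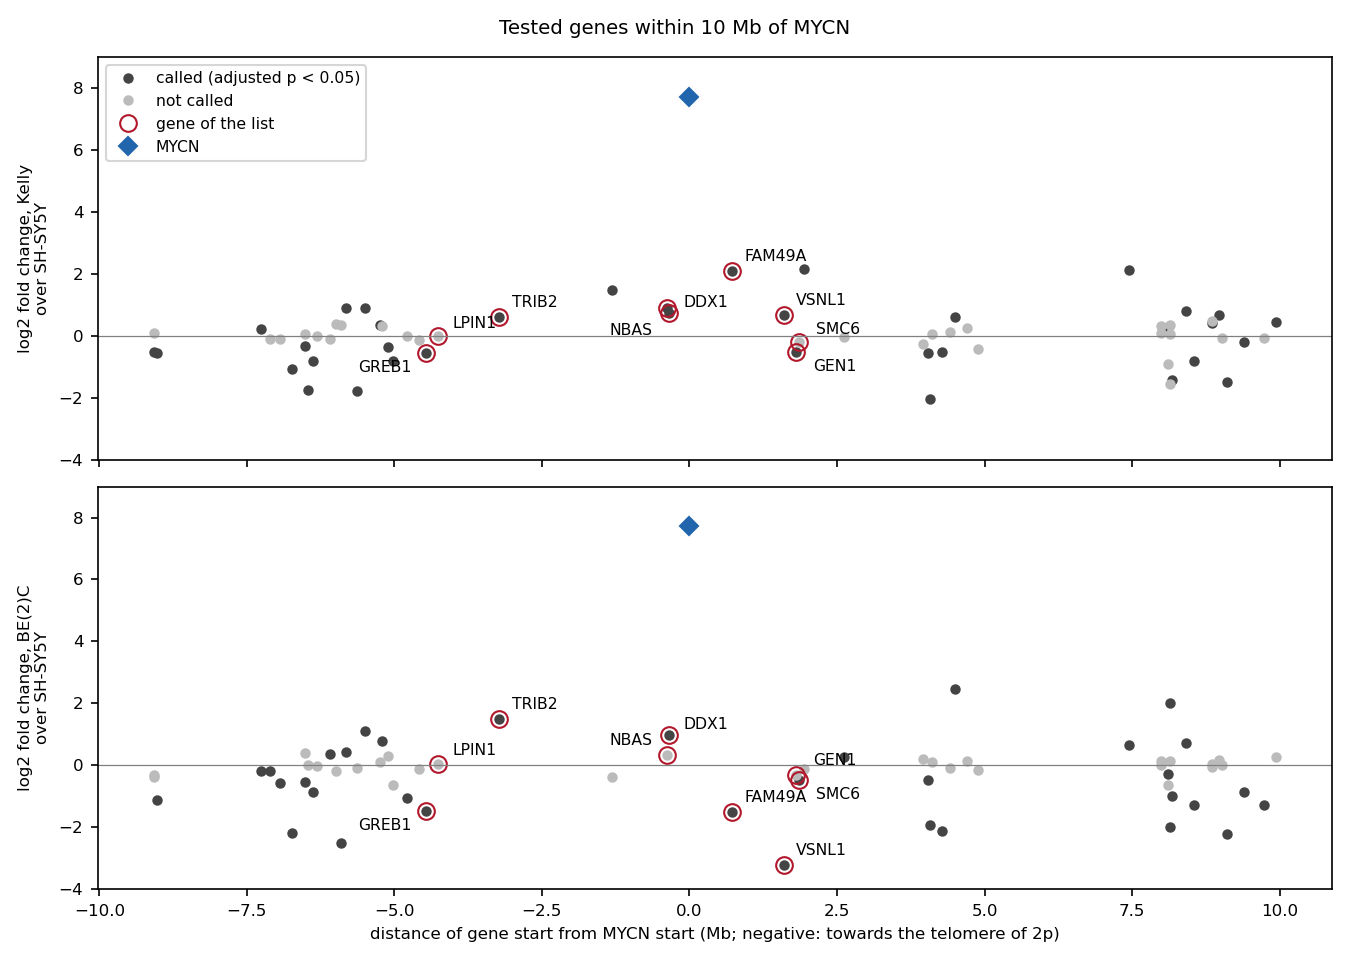
Log2 fold change of every tested gene within 10 Mb of MYCN against the distance of its start from that of MYCN (Mb, negative towards the telomere), in Kelly over SH-SY5Y (top) and BE(2)C over SH-SY5Y (bottom). Red circles mark the 9 genes, the blue diamond is MYCN, dark points were called and grey points were not. MYCN stands at 7.72 and 7.73, and no other point is above 2.15 in Kelly or above RHOB, at 2.47, in BE(2)C.

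For each of the 9 genes, the genes with the most similar pattern over the 9 libraries were found as those with the smallest root mean square (RMS) difference between centred log2 profiles, out of 13077 others. DDX1 was closest to PFDN1 (RMS 0.0551) and DICER1 (0.0576), on chromosomes 5 and 14. PFDN1 averaged 119 scaled TPM in Kelly, 146 in BE(2)C, against 74.7 in SH-SY5Y. NBAS was closest to C12orf5 (0.0836) and NOC2L (0.109), and FAM49A to PANX2 (0.18) and LHFP (0.249). The mean levels of LHFP were 13.2 scaled TPM in Kelly, 0.0774 in BE(2)C, against 2.38 in SH-SY5Y. VSNL1 was closest to PHACTR3 (0.187) and CCDC109B (0.224), TRIB2 to PELO (0.0656) and PA2G4 (0.0727), and GREB1 to AEBP1 (0.119) and ZC3H12B (0.129). GEN1 was closest to FLII (0.137) and JMJD1C (0.14), LPIN1 to ZNF142 (0.0991) and RC3H1 (0.136), and SMC6 to RTN4 (0.0782) and TTC21B (0.0803). RTN4, TTC21B and ZNF142 are on chromosome 2, outside the 10 Mb on either side of MYCN, and the other 15 genes are on other chromosomes. MYCN ranked between 13055 and 13074 of 13077 in likeness to each of the 9 genes, its own profile spanning far more than theirs. These likenesses are descriptions over 9 libraries of 3 lines.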

How the data were processed

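Polyadenylated RNA of Kelly, BE(2)C and SH-SY5Y was sequenced in 3 libraries each. The authors' table gives a log10 value per gene symbol and library, and the column sums fit log10(TPM + 1). The tools Salmon 0.3.2 and HISAT 0.1.6 and the build GRCh38 are named, per the submitters' processing notes, without their roles. The sources used here do not say how transcripts were summed to genes or whether reads were counted by strand, so a level may cover a gene's transcripts in part. Of 19837 entries, 92 spike-ins, 11 reporter or selection markers and 28 names turned into dates were left out. The number of unused columns is 0.

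Values were turned back to TPM, rescaled to an equal gene total and divided by unweighted trimmed-mean factors (trimming 30% by log ratio and 5% by level). Genes with at least 1 scaled TPM in 3 libraries were tested with limma 3.58.1 (R 4.3.3) on log2(scaled TPM + 1), with a mean-variance trend, over all 9 libraries and with no replicate block; fold changes on this scale understate changes of low genes. Depth is unknown, so no counting interval is given. The alternative with values as deposited kept the pseudocount of 1 on smaller numbers, so its log2 sizes are not those of scaling alone. No samples had identical values. The 9 genes and the gene and marker lists were chosen with earlier results of these data known. Within each comparison with SH-SY5Y, up to 8 further genes within 10 Mb were named if called, at least 2-fold changed and at 10 scaled TPM or more in the higher line. Positions are from GENCODE 29, matched for 18678 symbols directly and for 539 through an older or newer symbol; 489 did not match. Sequences are RefSeq's. The statistics were tested on simulated data. Alternatives were library totals only, the values as deposited, totals without mitochondrial genes, quantile normalization, a pseudocount of 0.1, a minimum of 5 scaled TPM or no minimum, a fit of the compared lines alone, a replicate block, genes within 5 Mb, and leaving out each library.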

Additional observations from a re-analysis of the deposited data

Results flagged for a closer look

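The differences from SH-SY5Y were unequal in Kelly and BE(2)C for 7 of the 9 genes, tested as the Kelly over BE(2)C term of the limma fit, where 52.5% of all tested genes were called. FAM49A (2.08 in Kelly and -1.52 in BE(2)C, difference 3.60 ± 0.22, adjusted p = 1.83e-06) went in opposite directions in these lines. VSNL1 (0.66 and -3.23, difference 3.89 ± 0.20, adjusted p = 6.54e-07) did so too, though its Kelly increase was lost under several alternatives. The sizes for both are set by the pseudocount, the differences being 6.16 for FAM49A and 5.39 for VSNL1 with 0.1, and 1.22 and 1.56 as deposited. NBAS (0.89 and 0.32, difference 0.57 ± 0.13, adjusted p = 0.00621) was further above SH-SY5Y in Kelly. TRIB2 (0.59 and 1.49, difference -0.90 ± 0.06, adjusted p = 3.91e-06) and DDX1 (0.74 and 0.97, difference -0.22 ± 0.06, adjusted p = 0.0135) were further above it in BE(2)C. GREB1 (-0.57 and -1.49, difference 0.92 ± 0.14, adjusted p = 4.47e-04) and SMC6 (-0.20 and -0.48, difference 0.28 ± 0.09, adjusted p = 0.0252) were further below it in BE(2)C. The part of the spike-in difference of Kelly or of the mitochondrial share of BE(2)C in these values was not tested.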

How the results depend on the processing

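Of 540 values of single genes under an alternative, 481 kept their direction and their side of the threshold. With the direction kept, 23 were no longer called and 15 became called. The other 21 reversed, and they were counted as such whether or not their call also changed. FAM49A kept its call and direction in all 3 comparisons under every alternative that was run, as did GREB1; the other genes with changes are given beside their results, and the cause of those was not tested. As deposited, the Kelly over SH-SY5Y calls were 1 higher and 4 lower among the 9 genes and 3 higher and 35 lower within 10 Mb, against 5, 2, 18 and 18 by scaled TPM. For BE(2)C over SH-SY5Y within 10 Mb (11 higher and 23 lower), library totals only gave 6 and 35, and the values as deposited 5 higher. For Kelly over BE(2)C, 1 of the 9 was lower with library totals only and with quantile normalization instead of 2, and 3 were higher as deposited instead of 5; within 10 Mb (26 and 11), library totals gave 4 lower and the values as deposited 11 higher. Within 5 Mb, 23 genes were tested, and the calls were 8 higher and 5 lower, 4 and 8, and 10 and 4 in the 3 comparisons. Of all calls in Kelly over SH-SY5Y, 50.8% were higher by scaled TPM, 41.4% with library totals only and 12.1% as deposited; in BE(2)C over SH-SY5Y these were 48.2%, 23.6% and 18.2%, and in Kelly over BE(2)C 53.2%, 74.4% and 40.1%.

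Replicate numbers did not pair the libraries: same-numbered libraries of different lines deviated from their means with correlations of -0.0544 to 0.0258 in 9 pairs, and 2 of 9 libraries correlated best with their own number. With a replicate block, 1 gene in place of 2 was lower in Kelly over SH-SY5Y, GEN1 being lost (adjusted p = 0.0552), and a fit of these lines alone also gave 1.

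Leaving out each library gave ranges in Kelly over SH-SY5Y of 6154 to 7362 genes called, 4 to 5 higher and 1 to 3 lower of the 9, and 15 to 19 higher and 11 to 17 lower within 10 Mb, the 11 without SH-SY5Y library 3. In BE(2)C over SH-SY5Y the ranges were 6723 to 7791, 2 to 3, 4 to 5, 10 to 12 and 17 to 24, and in Kelly over BE(2)C 6052 to 6665, 4 to 5, 2 to 3, 19 to 25 and 8 to 11.

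Reversals not given above concern LPIN1, GEN1 in Kelly over BE(2)C, and MYCN in Kelly over BE(2)C, none of them called by scaled TPM. LPIN1 in Kelly over SH-SY5Y ranged from -0.18 to 0.20 as single libraries were left out, with 0.07 without SH-SY5Y library 3. In BE(2)C over SH-SY5Y it was -0.40 with library totals, -0.44 as deposited, -0.16 without mitochondrial genes and between -0.04 and 0.13 as single libraries were left out. In Kelly over BE(2)C it was 0.26 with library totals, 0.01 without mitochondrial genes and between -0.23 and 0.15 as single libraries were left out, and GEN1 was 0.12 with library totals. MYCN in Kelly over BE(2)C was 0.32 with library totals (adjusted p = 0.0239), 0.07 without mitochondrial genes, 0.62 with quantile normalization (adjusted p = 0.00113), 0.01, 0.06 and 0.09 without Kelly library 1, BE(2)C library 2 and BE(2)C library 3, and -0.16 without BE(2)C library 1 (adjusted p = 0.0357). Reversals of called or compared values were TRIB2 at -0.11 in Kelly over SH-SY5Y as deposited, NBAS at -0.13 and -0.19 in BE(2)C over SH-SY5Y, and DDX1 at 0.10 in Kelly over BE(2)C with library totals. With no depth in TPM, low values such as those of FAM49A and VSNL1 in BE(2)C have no known counting error.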
